A study of Mus musculus with 109 samples.

Results

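After a systemic injection of lipopolysaccharide (LPS), 1466 short stretches of the mouse genome were listed as open chromatin in microglia at 24 h and at no other time examined. These regions were chosen by the deposited peak lists themselves: all peaks sharing at least 1 bp were joined into 59636 regions, and a region was kept where at least 2 of 4 samples at 24 h listed a peak and no untreated, 12 h or 2 week library did. They make up 6.47% of the 22673 regions with a peak in at least 2 of the 24 h samples. The microglia came from brains of wild-type C57BL/6 mice and were isolated by flow cytometry for their CD45 and CD11b. They were either untreated (8 libraries, 2 sequencing runs of each of 4 sample numbers) or taken at 12 h, 24 h or 2 weeks after 2.5 mg/kg LPS given intraperitoneally (4 libraries each). All mice were of 1 genotype, with no transgene or Cre allele named. The labels do not say whether a sample was 1 mouse or a pool, give no age, and describe no vehicle injection for the untreated mice. The sort does not separate microglia from other brain cells that carry both surface proteins, and the identity of the cells was not checked against marker genes in these libraries.

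Microglia are the resident macrophages of the brain, and LPS is a component of the outer membrane of Gram-negative bacteria that is sensed through the receptor TLR4. In macrophages this signal brings transcription factors such as NF-kB, AP-1, IRF and STAT proteins to enhancers and promoters, some of which are closed in resting cells and become accessible during the response. ATAC-seq maps accessible DNA with the transposase Tn5, which inserts sequencing adapters where nucleosomes do not block it, and a peak is a place where the sequenced ends (tags) pile up. Positions below are on mouse build mm9, as the authors' files give them. A gene annotation and a genome of that build were not used here, so no gene is assigned to any region and no sequence is shown.

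The libraries differed widely in how many peaks they gave, and this bears on every statement that a region was not seen. The 4 libraries at 24 h were alike, with 19865 to 30263 peaks and 3.43% to 5.79% of tags in peaks. The untreated libraries gave 4 to 7654 peaks with at most 1.43% of tags in peaks. At 12 h the lists held 1185 to 35435 peaks, and at 2 weeks 6342 to 33114. The peak caller compared each library with itself as the control, and this step removed 70.4% to 73.7% of the candidate peaks at 24 h, 71.7% to 96.4% at 12 h, 67.2% to 89.6% at 2 weeks and 82.6% to 99.97% in untreated libraries. A missing peak is therefore a place that the list does not hold, not a place shown to be closed. The part of these differences in the choice of regions was not tested.

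Most of the 1466 regions were listed by the smallest number of samples the rule allows. In all, 1171 regions (79.9%) had a peak in 2 of the 4 libraries at 24 h, 263 in 3, and 32 (2.18%) in all 4. Among the 21207 regions that also had a peak at another time, 40.8% were listed by 2 libraries at 24 h, 33.4% by 3 and 25.9% by all 4. Put the other way, the 24 h only regions were 11.9% of all regions held by 2 libraries at 24 h, 3.59% of those held by 3, and 0.58% of those held by 4.

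The 4 libraries did not contribute equally. Library 4 listed a peak in 1064 of the 1466 regions and library 2 in 999, whereas library 3 listed 651 and library 1 listed 545. The most frequent combination was libraries 2 and 4 alone, with 428 regions. Libraries 1 and 3 alone shared 63. These were also the largest and the smallest pair over all 24 h regions (3013 and 762), and the 24 h only share was 14.2% for libraries 2 and 4, 14.3% for 3 and 4, 14.1% for 2 and 3, and 8.27% to 9.29% for the 3 pairs with library 1. Libraries 4 and 2 were also those with the most peaks at 24 h (30263 and 28247, against 24491 in library 1 and 19865 in library 3). Taken as a share of each library's own regions, the 24 h only regions were 2.86%, 4.47%, 4.02% and 4.53% in libraries 1 to 4. Library 1 had the fewest tags of the 4, and the part of depth in these shares was not tested.

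**Figure D1:**
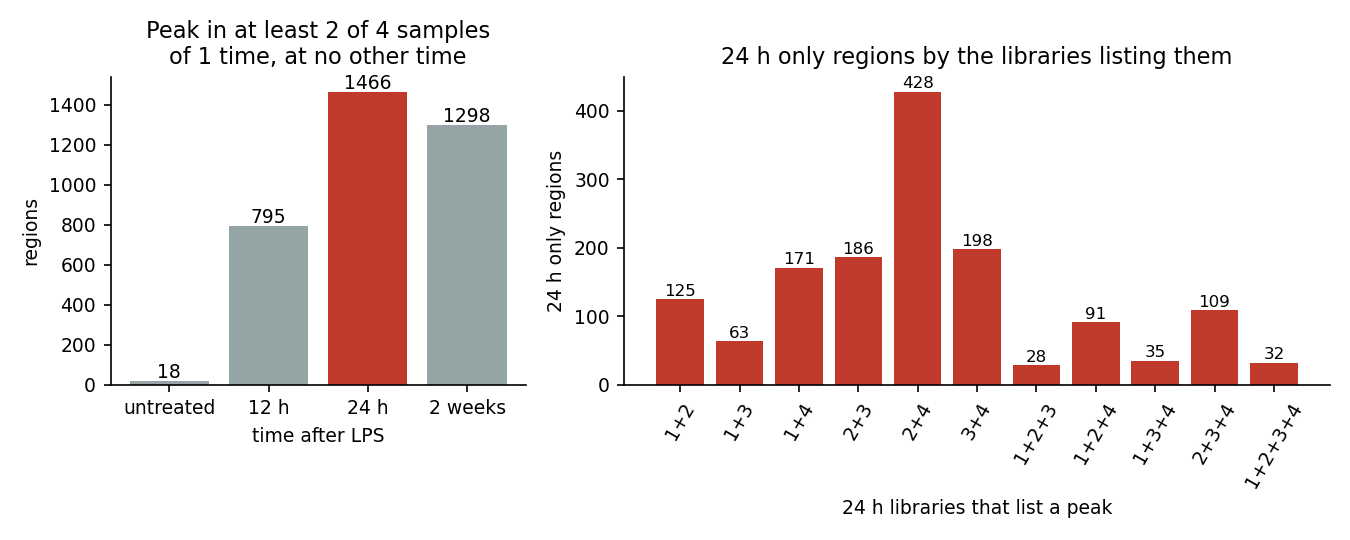
Left, the number of regions with a peak in at least 2 of 4 samples of 1 time and at no other time, for each time (y axis, regions). Right, the 1466 regions of 24 h by the set of 24 h libraries that list them (x axis, library numbers); libraries 2 and 4 alone hold 428, and all 4 together hold 32.

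The same rule applied to the other times gave 1298 regions seen only at 2 weeks (6.99% of the 18570 regions with a peak in at least 2 of 4 samples there), 795 seen only at 12 h (5.15% of 15425) and 18 seen only in untreated microglia (1.23% of 1463). The share at 24 h, 6.47%, thus lay between those at 12 h and at 2 weeks. Regions held by all 4 samples were 2.18% of the 24 h only regions, 1.08% of the 2 week only regions (14 regions) and 0.25% of the 12 h only regions (2 regions). These counts share libraries through the rule and are given as a description.

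The 32 regions listed by all 4 libraries are those held most widely at 24 h, which speaks to presence, not to absence elsewhere. Their mean normalised tag count, which is the number of tags in a peak scaled by the authors to 10000000 tags per library, ran from 6.32 to 73.1 with a median of 12.8. Of these, 10 were named by a rule of strength among regions outside chromosome 18, and are called regions 1 to 10 here in order of that mean. Where a library lists more than 1 peak in a region, its highest value is used.

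Region 1 (chr12:66176480-66176582) had normalised tag counts of 78.0, 67.8, 65.2 and 81.2 in libraries 1 to 4, a mean of 73.1 ± 7.75 (SD, n = 4). Region 2 (chr7:117308418-117308520) had 57.7, 49.2, 45.2 and 53.4, a mean of 51.4 ± 5.38 (SD, n = 4). Both regions were 103 bp long, and their values lay within 1.25 and 1.28 times of each other across the 4 libraries. Their tag density stood 10.9 times above that of the surrounding 10 kb in both cases, against a median of 14.9 times over the 1466 regions. Region 1 lay 99679 bp from the next region held by at least 2 libraries at 24 h, and region 2 lay 25159 bp from its own. Regions with a peak at another time lay nearer, 1535 bp from region 1 and 7112 bp from region 2.

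Region 3 (chr7:17477469-17477622) had 43.3, 24.6, 25.9 and 26.9, a mean of 30.2 ± 8.80 (SD, n = 4), with library 1 above the others. Before scaling the tags were 33, 37, 33.5 and 33, so library 1 stood out only after scaling. A region with a peak at another time lay only 72 bp away. It is the one named region that close to such a neighbour, and it lay on the same chromosome as region 2 without being near it.

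Region 4 (chr11:98616080-98616242) had 37.4, 17.0, 20.8 and 26.9, a mean of 25.5 ± 8.91 (SD, n = 4). It stood 29.3 times above its surroundings, the second highest local rise of the 10. Region 5 (chr6:94482228-94482353) had 30.8, 20.3, 15.1 and 17.8, a mean of 21.0 ± 6.87 (SD, n = 4). Region 6 (chr11:117848087-117848193) had 26.9, 15, 16.6 and 19.9, a mean of 19.6 ± 5.28 (SD, n = 4). Library 1 was the highest in regions 2 to 6. Region 6 stood only 6.70 times above its surroundings on average, the lowest local rise of the 10. The libraries differed here, with 12.15 times in library 1 and 4.72, 4.77 and 5.15 times in libraries 2, 3 and 4. The latter lay near the 4 times that the peak caller required.

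Regions 7 to 10 were close in strength, with means of 17.4 ± 2.57, 16.4 ± 2.92, 16.3 ± 6.65 and 16.2 ± 5.95 (SD, n = 4 each), differences smaller than the spread between libraries. Region 7 (chr9:40141333-40141492) had 19.0, 19.6, 13.9 and 17.0. Region 8 (chr3:57967789-57967931) had 19.0, 12.3, 17.8 and 16.6. The libraries stayed within 1.41 and 1.54 times of each other in these 2 regions. Region 8 stood 30.6 times above its surroundings, the highest local rise of the 10.

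Region 9 (chr14:51515907-51516072) had 15.7, 10.3, 13.5 and 25.7, and region 10 (chr2:155463213-155463353) had 9.17, 17.0, 15.1 and 23.6. Library 4 was the highest in both, and the libraries differed by up to 2.50 and 2.57 times. Region 10 in library 1 rested on 7.0 tags before scaling, close to the lowest tag number that library lists, which is 6.0. The other 19 regions listed by all 4 libraries outside chromosome 18 had means of at most 15.9.

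**Figure D2:**
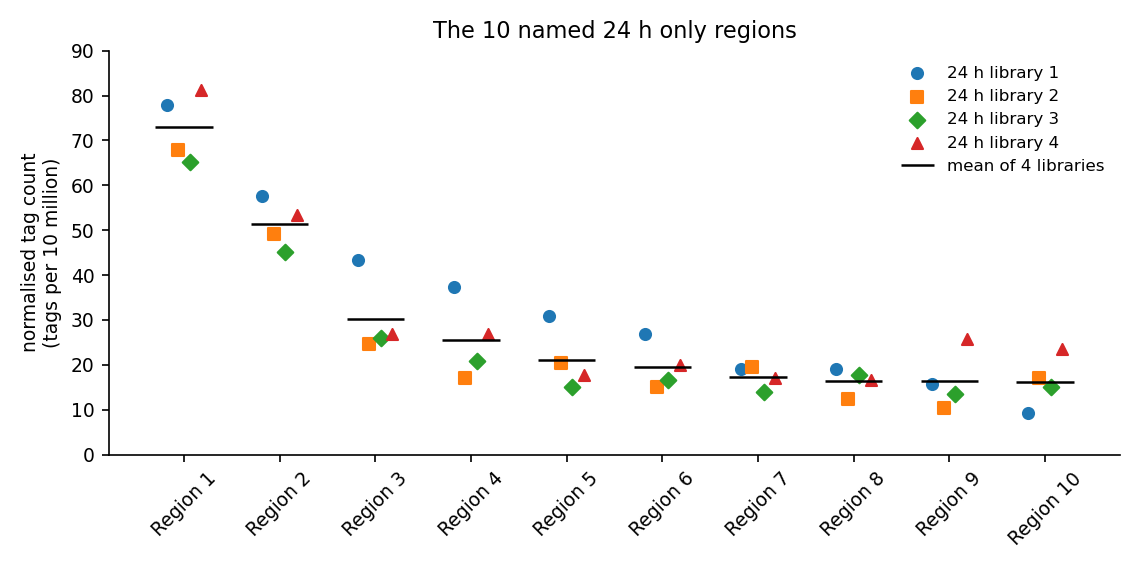
Normalised tag count (y axis) of the 10 named regions in each of the 4 libraries at 24 h (one symbol per library) with the mean as a bar. Regions 1 and 2 stand at means of 73.1 and 51.4, apart from the rest, and library 1 is the highest symbol in regions 2 to 6.

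Across all 1466 regions the peaks were weaker than in the regions also seen at another time. Low values were not particular to 24 h: the medians were 12.55 in the 12 h only regions and 9.85 in the 2 week only regions. The mean normalised tag count of a region was taken over only the 24 h libraries that listed a peak there. Library 1, which had the highest library medians, listed 37.2% of the 24 h only regions and 66.3% of the others. The pooled values of these sets thus mix the libraries differently. In the 24 h only regions the mean normalised tag count ran from 4.98 to 102.5 with a median of 10.1 and quartiles of 7.88 and 16. The regions also seen at another time had a median of 15.6 and quartiles of 10.8 and 24.4. Under 10 lay 723 of the 24 h only regions (49.3%) and 19.9% of the others. At 30 or more lay 145 (9.89%) and 17.1%. Before scaling, the mean tag number of a region had a median of 12.5 and a lowest value of 6.5.

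The gap in strength was seen in each library. In library 1, which had the fewest tags and so the highest lowest listed value after scaling, the median was 14.4 in 24 h only regions and 19.7 in the others. The pairs of medians were 8.98 and 14 in library 2, 10 and 13.9 in library 3, and 9.94 and 15.7 in library 4. The others were thus 1.37 to 1.58 times stronger, although the quartiles of both sets overlapped in all 4 libraries. The rise over the surrounding 10 kb was also lower, with library medians of 13.5 to 17.1 times in the 24 h only regions and 19.4 to 23.5 times in the others. These differences come from the libraries that the rule used and are a description of what it selects. The median local rise was 14.9 times over the 24 h only regions, 12.9 times over the 12 h only regions and 17.3 times over the 2 week only regions.

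**Figure D3:**
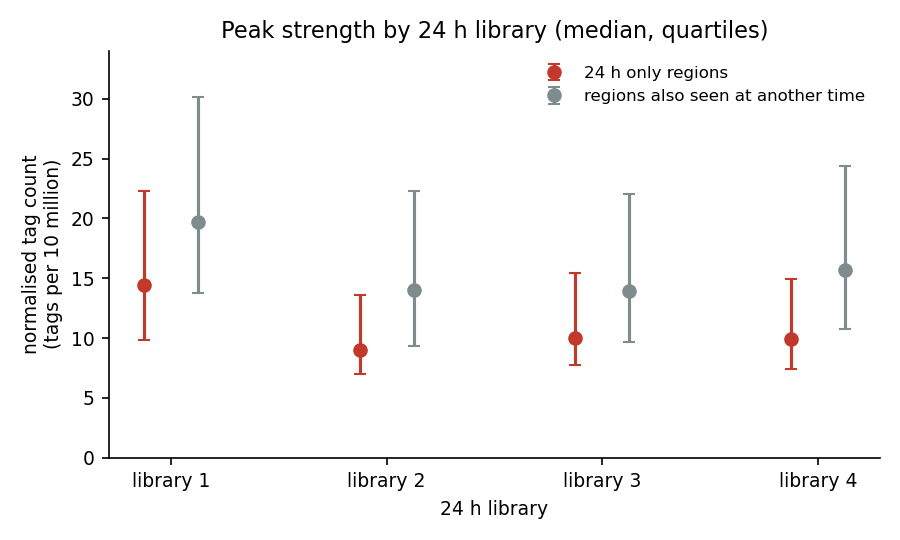
Median normalised tag count (points, y axis) with quartiles (bars) of the 24 h only regions and of the regions also seen at another time, in each 24 h library. The 24 h only medians lie between 8.98 and 14.4 and the others between 13.9 and 19.7, with overlapping quartiles.

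The share of 24 h regions that no other time listed fell with strength and then levelled off. It was 20.3% of 1918 regions with a mean under 8, 11.0% from 8 to 10, 5.38% from 10 to 15, 3.74% from 15 to 20, 3.08% from 20 to 30 and 3.85% of 3763 regions at 30 or more. At each strength it was lower where more libraries held the region. Among regions at 30 or more it was 7.22% with 2 libraries, 2.11% with 3 and 0.31% with 4.

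**Figure D4:**
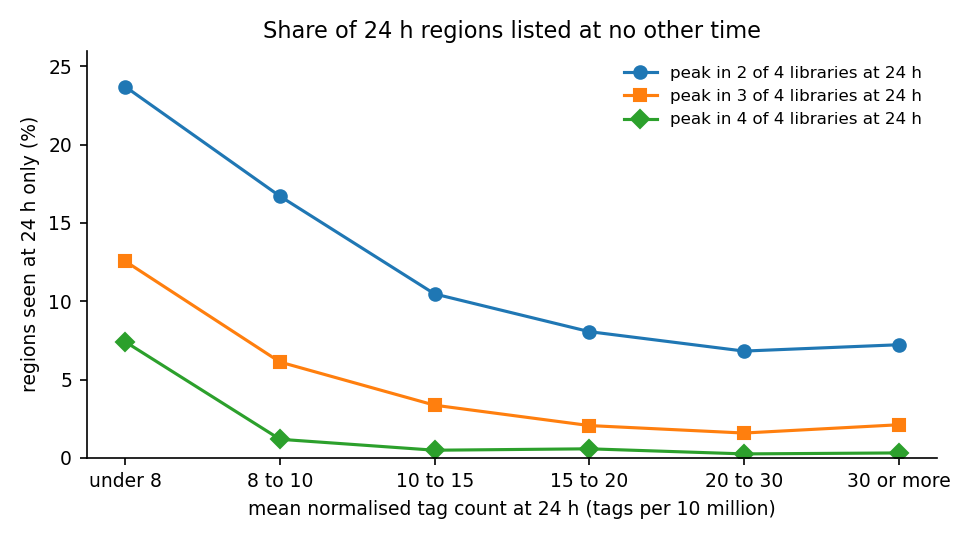
Share of 24 h regions that were listed at no other time (y axis, %) by mean normalised tag count at 24 h (x axis), in regions held by 2, 3 or 4 libraries at 24 h. The share was 23.7% in regions under 8 held by 2 libraries, and 0.31% in regions at 30 or more held by all 4.

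The 145 regions at 30 or more are called strong here, a limit set only by the bins above. Of these, 117 were held by only 2 libraries, as were 1171 (79.9%) of all 1466 regions. Libraries 1 and 4 formed the most frequent pair, with 32 strong regions, and that pair held 171 of the 1466. The ratio of a peak to its own library used as control had to reach 4 for a peak to be listed. In 81 of the 145 (55.9%) the mean of this ratio was under 5, against 28.7% of the 3618 regions at 30 or more that other times also listed. The mean normalised tag count of those 3618 regions reached higher values (up to 363.2, against 102.5). The ratio to the own library lay under 5 in 15.6% of all 1466 regions, against 12.0% of the others. Strong 24 h only regions therefore often lay near this limit, and the part of the limit in their absence from other lists was not tested.

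Where 2 libraries at 24 h held the same 24 h only region, their values went together. Spearman's rho across regions was 0.75 to 0.82 over the 6 pairs of libraries, on 158 to 660 regions a pair, and the median ratio of the higher to the lower value was 1.17 to 1.38. In the regions also seen at another time rho was 0.77 to 0.90. Regions are not independent replicates, their scale is shared within a library, and the rule keeps only values above the caller's minimum.

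How much each other library could have shown differs. The 24 h level of a region is its mean over only the 24 h libraries that listed it, 2 of them for 1171 regions. At that level, all 1466 regions would reach the lowest listed tag number in 12 h libraries 1 and 3 and 2 week libraries 1 and 3. In the deeper run of untreated sample 1, 1278 (87.2%) would. That number can lie below the caller's false discovery rate threshold in tags (6 against 8 in 12 h library 3, 6 against 7 in that untreated run). These counts may thus be too high. In untreated samples 3 and 4 this held for 464 and 537 regions, 31.7% and 36.6%. Reaching that number did not mean being listed. The shares that follow are over regions also seen at another time, a set to which each library adds the regions it lists. They thus partly follow from the choice of that set. Of the regions also seen at another time that reached it, 31.4%, 4.54%, 74.6% and 51.6% were listed in 12 h libraries 1 to 4, and 21.8%, 63.7%, 69.7% and 20.9% in 2 week libraries 1 to 4. In untreated samples 1 to 4 the shares were 32.1%, 8.73%, 0.024% and 0.75%. Untreated sample 1 thus lay near 12 h library 1, and 12 h library 2, where 788 of the 1466 regions (53.8%) reached the lowest listed number, lay below untreated sample 2 (1150 regions, 78.4%). Absence in the untreated group rests mainly on sample 1, and absence at 12 h mainly on library 3, which alone removed 1099 regions. Without that library the rule gave 2564 regions. Leaving out a 24 h library lowered the count, to 669 without library 4 and 728 without library 2.

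At the edge of the rule, the 3 weakest regions had means of 4.98 (chr5:114502294-114502387), 5.19 (chr2:13343767-13343865) and 5.19 (chr8:120170050-120170171), each in libraries 2 and 4 with 6.0 to 7.5 tags. Library 1, with the fewest tags, could not list values this low. Just outside lay 5718 regions listed by 1 library at 24 h and nowhere else, with a median of 9.31, and 2776 regions with at least 2 libraries at 24 h and 1 elsewhere, with a median of 11.1. The strongest of the former, chr8:77557759-77557855, had 124.5 in library 1 and no peak in the other 3 lists. The strongest of the latter, chr1:167564708-167564811, had 119.3, 105 and 112.6 in libraries 1, 3 and 4 and a peak in 1 library at 2 weeks. Regions outside the rule were thus as strong as the strongest inside it.

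The 1466 regions were narrow and scattered. Their length ran from 93 bp (chr7:4322231-4322323) to 243 bp (chr19:47895781-47896023), with a median of 113 bp. The median was 144 bp in the others, which join peaks of more libraries. It was 109 bp in the 12 h only regions and 119 bp in the 2 week only regions. The lists of 24 h were made with peak sizes of 92 to 102 bp, and those of the 4 largest lists at 12 h and 2 weeks with 77 to 81 bp. Members lay on all 20 chromosomes in the lists, and their share of the 24 h regions ran from 5.69% on chromosome 15 to 7.50% on chromosome 9, around 6.47% in all. Chromosome 11 held the most, 122 of its 1694 regions at 24 h (7.20%), and the X chromosome the fewest, 33 of 478 (6.90%).

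Few lay close to another of their own set, as at the other times. Such a neighbour lay within 10 kb of 4.30% of the 24 h only regions. The share was 3.02% for the 12 h only and 2.16% for the 2 week only regions, and it depends on the size of each set. With a bound of 10 kb between neighbours, 1403 of the 1466 regions stood alone, 56 formed 28 pairs, and 2 longer runs were found. The longest run held 4 regions over 20.4 kb (chr17:27728845-27749206) and the other 3 regions over 10.2 kb (chr8:129207583-129217776). Neither run contained a region that was held by at least 2 libraries at 24 h and also seen at another time, although the shorter run held 2 regions with a peak at another time and the longer run 0. They were picked out after the values were seen.

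Many lay near chromatin that other times also listed. A region with a peak at another time lay within 500 bp of 236 (16.1%), within 1 kb of 338 (23.1%) and within 10 kb of 1023 (69.8%), with a median distance of 4612 bp. The median distance was 2608 bp for the regions seen only at 12 h, of which 28.2% had such a neighbour within 500 bp, and 5511 bp for those seen only at 2 weeks, of which 14.9% did. The next region held by at least 2 libraries of the same time lay at a median of 13156 bp at 24 h, 18495 bp at 12 h and 18523 bp at 2 weeks, in sets of 22673, 15425 and 18570 regions. These distances depend on the number of regions in each set.

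**Figure D5:**
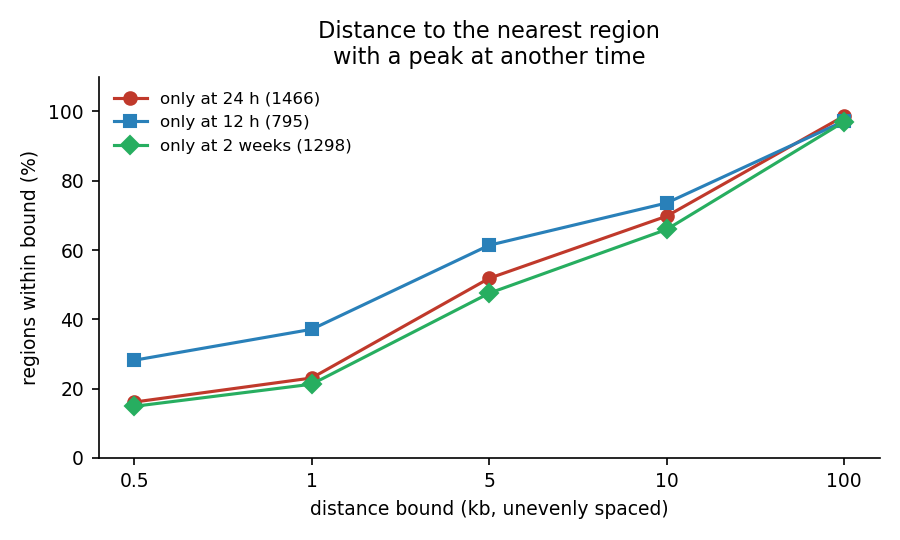
Share of regions (y axis, %) with a neighbouring region that has a peak at another time within the distance on the x axis (0.5 to 100 kb, unevenly spaced), for the regions seen only at 24 h, 12 h and 2 weeks. At 24 h the share rises from 16.1% within 0.5 kb to 69.8% within 10 kb.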

How the data were processed

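The data were 20 deposited ATAC-seq peak lists, 1 per library. Per the file headers they were made with HOMER findPeaks (fragment length 300 bp, false discovery rate 0.001, fold of 4 over the input and over the local 10 kb), with the library itself as the input, and build mm9 is named in the submitters' processing notes. An aligner was not given in the sources used here. The normalised tag count and the tag number are signals of the authors, and the score and the ratios over local tags and over the library's own input are deposited values too. The deposited focus ratio is a fraction and is not reported.

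Peaks sharing at least 1 bp were joined with Python 3.11.15 and pandas 2.3.3, and the joining was tested on simulated peaks. The 2 runs of an untreated number counted as 1 replicate. No test was run, since the rule uses every ATAC library. Medians and shares are descriptions, and SDs are over libraries. The RNA tables were not used here, because peaks could not be tied to genes without an annotation of mm9. The members and the choices of settings were made with earlier results of these data known. Regions named were the 10 with the most 24 h libraries and then the highest mean, the widest and narrowest, and 3 at each side of the rule's threshold, outside chromosomes M and 18.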

Additional observations from a re-analysis of the deposited data

Results flagged for a closer look

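Dixon's ratio was computed for 20 sets of 4 values, of which chance alone would put about 1 in 20 past its 95% limit. One set passed it: in region 3 (chr7:17477469-17477622) library 1 had a normalised tag count of 43.3, and the nearest of the other 3 libraries had 26.9 (ratio 0.877).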

How the results depend on the processing

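The count of 1466 regions depends on the rule's limits and on single libraries. It was 295 with at least 3 of 4 libraries at 24 h, 32 with all 4, 418 when only 24 h peaks at or above the median score of their library were kept, and 214 with the 1185 top-scoring peaks of each library that has at least 1000. Leaving out 1 library gave 669 to 2564 regions (669 to 1108 for 24 h libraries, 1478 to 2564 for 12 h, 1524 to 2030 for 2 weeks and 1466 to 1564 for untreated samples). The count stayed within 1.5 times of 1466 when joined peaks had to share at least 0.5 of the shorter peak (1538), when a neighbour of another time within 500 bp removed a region (1230), and when every list was limited to its upper scores (1122). Alternatives chosen after seeing the data gave 1806 (only the libraries with at least 10000 peaks), 1370 (every peak set to 200 bp) and 1467 (another reading of the listed end). The median normalised tag count, 10.1, moved by less than the SD of the 4 library medians, 2.43, in every alternative in which it was computed (9.33 to 11.1 without 1 of the 24 h libraries). That SD is a spread between libraries, in which library 1, the one with the fewest tags, stood apart (14.4, against 8.98, 10 and 9.94). Library 1 also had the largest share of tags in peaks at 24 h (5.79%, against 4.71%, 3.43% and 5.51% in libraries 2 to 4). The part of depth and of that share in the spread was not tested. The SD does not measure the uncertainty of the median of 10.1. No paired analysis was possible because the counts and medians come from a rule over the peak lists and from no test. The planned RNA comparisons of neighbouring genes and the sequence features were not run, since neither an annotation nor a genome of mm9 was used here. The absence of a peak says least in untreated samples 3 and 4 and in 12 h library 2, where 31.7%, 36.6% and 53.8% of the regions would reach the lowest listed tag number at their 24 h level.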
